A study of Oncorhynchus mykiss with 20 samples.

Results

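Whole intestines of a selected strain of rainbow trout (Oncorhynchus mykiss), called Select, were compared with those of a common commercial strain, called Commercial, at 65 days post hatch (dph). The comparison takes the libraries whose labels give this age, 5 from Select and 5 from Commercial, which are 10 of the 20 libraries of the study. The other 10 come from the same strains at 20 dph. Poly(A) RNA was sequenced, and each library is labelled as a biological replicate, without a statement of how many fish it holds. Both strains were all-female, were reared together as eggs and ate a commercial starter diet from first feeding, in spring water at 15 °C. At hatching they were moved to separate raceways, so strain and raceway cannot be told apart. The Select fish belong to the line named ARS-KO in the labels. The older age falls just before the usual switch to a diet of plant protein.

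The trout intestine absorbs nutrients through a single layer of enterocytes, whose brush border carries peptidases and transporters and whose endosomes and lysosomes digest protein taken up whole. Below it lie fibroblasts that lay down collagen and laminin, blood vessels, nerves, smooth muscle and scattered leukocytes. Enterocytes also make cholesterol and fatty acids, and they buffer dietary zinc and copper with metallothionein.

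The Commercial libraries at 65 dph held on average 8425216 expected counts (SD 828198, n = 5), those of Select 9730185 (SD 2704591, n = 5), and single libraries ran from 7314588 to 13682738. Levels are given in CPM, counts scaled to library size with TMM, edgeR's correction for library composition. A feature is a gene, or a single transcript where no gene was matched. Of 61670 features, 6926 had a gene symbol, and these held 22.9% of the counts at 65 dph. The tissue label was checked against 14 genes of enterocytes and intestinal identity, which summed to between 5320 and 8110 CPM in every library and of which 1 was at 0 in all 10. Liver markers summed to between 81.7 and 122 CPM, of which hao1 made up 51.6%, and skeletal muscle markers to between 22.6 and 46.9 CPM. Exocrine pancreas had only 2 members in the files, and they summed to between 4.27 and 55.7 CPM. In whole tissue, more cells of a type and more RNA per cell cannot be told apart.

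The libraries did not all group by strain label. The library labelled Commercial replicate 2 was most like Select replicate 5, with a Pearson correlation of log2 CPM of 0.933 over the 32166 features tested, while the other 44 pairs lay between 0.865 and 0.929. With the other 4 Commercial libraries it reached only 0.865 to 0.872, and with the other 4 Select libraries 0.891 to 0.896. Select replicate 5 also stood apart from its group. It reached 0.89 to 0.898 with the other 4 Select libraries, which reached 0.899 to 0.929 among themselves, and 0.865 to 0.871 with the other 4 Commercial libraries. The pair differed by more than the sampling of reads alone gives. Their median chi-square per feature was 1.67 times that expectation, against 3.89 to 18.2 times in the other pairs. The expectation leaves out the uncertainty from dividing reads between near-identical copies. At 364 features 1 library of the pair held at least 5 CPM and the other at most 0.2 CPM, where the other pairs had 250 to 553. A repeat of 1 library was not tested beyond these values.

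The strains' own difference at 20 dph gave a second view of the library labelled Commercial replicate 2, with group means from other fish. The view is not fully independent, because the libraries of both ages were fitted together. The 20 dph fish therefore also entered the estimate of spread in the comparison of the older fish. In the same way that library entered the spread behind the 20 dph calls. Of 32166 features, 51 (0.159%) differed between strains at 20 dph, and at 36 of these the library labelled Commercial replicate 2 lay nearer the Select mean of that age. The other 4 Commercial libraries did so at 18 to 25, and the 5 Select libraries at 35 to 42. Among the 12 of these features with at least a 4-fold difference, the library labelled Commercial replicate 2 was nearer Select at 10, each Select library at 10 or 11, and the other Commercial libraries at 1 to 4. Why it lies there was not tested. Results are therefore given with all libraries and without this library and Select replicate 5, which leaves 4 against 4. Both were picked by their own expression values, which by itself can raise the number of calls. The adjusted p values do not allow for that choice.

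**Figure D1:**
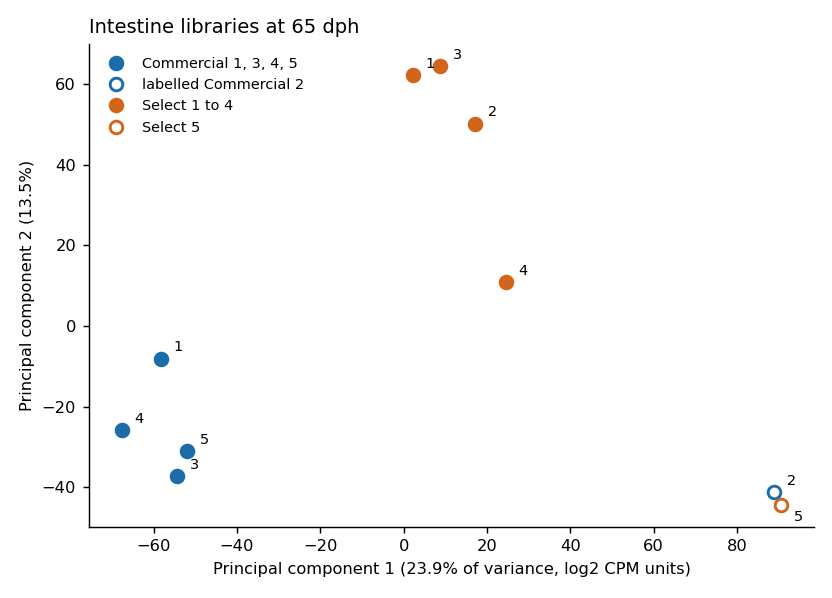
Principal components of log2 CPM of the 10 libraries at 65 dph, with 23.9% of the variance on the horizontal and 13.5% on the vertical axis. Each point is a library with its replicate number. Open points are the library labelled Commercial replicate 2, at 88.89 on the first component, and Select replicate 5, at 90.68. The other 4 Commercial libraries lie between -67.65 and -51.91 and the other 4 Select libraries between 2.15 and 24.57. On the second component the open points lie at -41.11 and -44.33, below all others. There the other 4 Commercial libraries lie between -37.2 and -8.11 and the other 4 Select libraries between 10.92 and 64.43.

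With all 10 libraries, no feature differed between the strains. None of 32166 (0%) had an adjusted p under 0.05 by edgeR's quasi-likelihood test, and the smallest adjusted p was 0.183. An unadjusted p under 0.05 was reached by 2000 features (6.22%), 872 higher (2.71%) and 1128 lower (3.51%) in Select. DESeq2 called 121 of the same features and limma-voom called 0. Without the library labelled Commercial replicate 2 alone, edgeR called 125 features, 68 higher and 57 lower. Without Select replicate 5 alone it called 7.

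Without both alike libraries, 53 of 32498 features (0.163%) differed, 21 higher in Select (0.0646%) and 32 lower (0.0985%). They comprised 10 genes with a symbol, 20 genes with a LOC name and 23 single transcripts, and 41 of them differed by more than 2-fold. At all 53 the groups of 4 did not overlap, as at 8.39% of all features. A lack of overlap therefore adds nothing to a call. The 125 features called without the library labelled Commercial replicate 2 alone held 43 of the 53 (81.1%), which made up 34.4% of the 125. When any 1 of the 8 libraries was also left out, between 13 and 35 features were called, with 13 without Commercial replicate 3, 16 without Select replicate 3 and 35 without Select replicate 1 or 4. Features just inside and just outside the threshold were mt2, with an adjusted p of 0.0482, and a transcript with an adjusted p of 0.0503.

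Of the 10 genes with a symbol, 7 were lower in Select. The most certain was zgc:158868, for which no function is given here. Its level was 118, 103, 119 and 109 CPM in Commercial replicates 1, 3, 4 and 5, and 43.3, 40.5, 55.3 and 53.2 CPM in Select replicates 1 to 4. The groups did not overlap, and the log2 fold change was -1.25 (SE 0.15, adjusted p = 0.0057). Below the other Select libraries lay both the library labelled Commercial replicate 2, at 33.5 CPM, and Select replicate 5, at 30.0 CPM. With all libraries the log2 fold change was -1.12 (SE 0.26, adjusted p = 0.372).

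The metallothionein mt2, a small protein that binds zinc and copper and is induced by them, was lower in Select by 1.25 on the log2 scale (SE 0.24, adjusted p = 0.0482). It stood at 942, 1610, 1580 and 1540 CPM in Commercial replicates 1, 3, 4 and 5, and at 460, 727, 725 and 518 CPM in Select replicates 1 to 4. Every Select library lay below every Commercial library of the 4 against 4. Lowest of all 10 was the library labelled Commercial replicate 2, at 375 CPM, and Select replicate 5 held 421 CPM. At 20 dph the strains had stood at 1040 CPM (SD 187, n = 5) in Commercial and 958 CPM (SD 292, n = 5) in Select.

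Other genes of metal transport gave values on both sides of 0 without passing the test. The divalent metal transporter slc11a2, which carries iron into the enterocyte in mammals, was at 30.1, 32.2, 36.5 and 37.0 CPM in the 4 Commercial libraries and at 26.6, 25.0, 23.7 and 20.9 CPM in the 4 Select libraries (log2 fold change -0.52, SE 0.12, adjusted p = 0.111). The iron exporter slc40a1 (ferroportin) was at 9.32, 17.0, 13.1 and 15.9 CPM against 40.1, 86.2, 18.2 and 52.6 CPM (log2 fold change 1.81, SE 0.53, adjusted p = 0.19). Both sets were without overlap, in opposite directions, beside 4.13% of all features lower in Select and 4.25% higher. Of 12 tested genes of metallothionein, zinc, copper and iron handling, mt2 alone passed the test. The median log2 fold change was -0.09, beside -0.01 over all features and -0.06 over all genes with a symbol.

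Enzymes that release and convert arachidonic acid, the source of prostaglandins and leukotrienes, included another gene that was lower in Select. The cytosolic phospholipase pla2g4ab was at 13.5, 19.3, 15.6 and 20.7 CPM in Commercial replicates 1, 3, 4 and 5 and at 6.75, 6.58, 6.26 and 6.44 CPM in Select replicates 1 to 4 (log2 fold change -1.43, SE 0.27, adjusted p = 0.0482). The Select libraries were tightly grouped, and the library labelled Commercial replicate 2 lay with them at 5.94 CPM, as did Select replicate 5 at 7.96 CPM. The cyclooxygenase ptgs1 gave a log2 fold change of -0.85 (adjusted p = 0.25). Outside the list of these enzymes, prxl2b, a prostaglandin F synthase in mammals, gave one of -1.01 (adjusted p = 0.0541). Also outside it, alox5ap, which presents arachidonic acid to 5-lipoxygenase, gave one of -0.98 (adjusted p = 0.113). The last of these was high in both libraries set aside, at 6.71 and 5.86 CPM, where the other Select libraries held 1.62 to 3.34 CPM. Over the 9 tested phospholipases and eicosanoid enzymes, 4 log2 fold changes lay above 0 and 5 below. The median was -0.32, which became 0.04 without Commercial replicate 4. Those above 0 were pla2g12a at 1.59, pla2g15 at 0.37, ptges at 0.23 and ltc4s at 0.10, none with an unadjusted p under 0.05.

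The transcription factor glis3, a zinc finger protein, was lower in Select by 1.48 on the log2 scale (SE 0.28, adjusted p = 0.0441). Its levels were 12.1, 11.5, 7.73 and 7.84 CPM in the 4 Commercial libraries and 3.67, 3.95, 4.01 and 2.62 CPM in the 4 Select libraries. It was the only called symbol gene below the Commercial range in all 5 Select libraries, although by little, since the library labelled Commercial replicate 2 held 4.51 CPM and Select replicate 5 held 4.45 CPM. With all 10 libraries its log2 fold change was -1.22 (SE 0.27, adjusted p = 0.372).

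Among enzymes of sugar and nucleotide metabolism, gnpnat1, which makes N-acetylglucosamine phosphate for glycan synthesis, was at 31.5, 36.2, 36.4 and 30.6 CPM in Commercial and at 25.0, 23.1, 19.2 and 19.8 CPM in Select. The log2 fold change was -0.65 (SE 0.12, adjusted p = 0.0482). The purine nucleoside phosphorylase pnp4b was at 26.1, 23.8, 37.4 and 38.2 CPM against 18.1, 16.8, 15.4 and 14.4 CPM, or -0.98 on the log2 scale (SE 0.18, adjusted p = 0.0378). Neither gene's groups overlapped. For pnp4b both libraries set aside lay below the 4 Select libraries, at 10.6 and 9.60 CPM, and for gnpnat1 among them, at 24.0 and 20.5 CPM.

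The RNA polymerase II-associated protein rpap1 was at 19.5, 21.2, 19.6 and 18 CPM in Commercial and at 13.4, 14.1, 12.3 and 12.5 CPM in Select (log2 fold change -0.60, SE 0.10, adjusted p = 0.0285). The groups did not overlap, and both libraries set aside were lower than all of them, at 10.4 and 10.9 CPM. Among 20 tested RNA polymerase subunits and transcription genes, rpap1 alone passed the test. An unadjusted p under 0.05 was reached by 5 members, all lower in Select, where 6.03% of all features were lower with such a p and 5.1% higher. An example is the RNA polymerase III subunit polr3f, with a log2 fold change of -0.82 (adjusted p = 0.229). Of 5299 tested genes with a symbol, 395 were lower and 195 higher at an unadjusted p under 0.05. The list's median was -0.29, and -0.16 without Commercial replicate 4.

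In all 3 symbol genes that were higher in Select, the library labelled Commercial replicate 2 lay among or above the Select libraries. The mitochondrial co-chaperone grpel2, a nucleotide exchange factor for mitochondrial Hsp70, was at 3.49, 6.29, 3.12 and 5.80 CPM in Commercial replicates 1, 3, 4 and 5 and at 12.3, 13.0, 12.0 and 16.3 CPM in Select replicates 1 to 4. It was higher in Select by 1.49 on the log2 scale (SE 0.22, adjusted p = 0.0131). Highest of all 10 was the library labelled Commercial replicate 2, at 22.4 CPM, next to 21.9 CPM in Select replicate 5. Over the 20 tested genes of mitochondrial chaperones and import, grpel2 included, 5 log2 fold changes lay above 0 and 15 below, with a median of -0.16, and grpel2 was the only call.

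The gene zgc:56585 was at 36.3, 39.6, 38.3 and 37.0 CPM in the 4 Commercial libraries and at 77.8, 68.5, 89.0 and 76.3 CPM in the 4 Select libraries (log2 fold change 1.02, SE 0.16, adjusted p = 0.0185). Inside the Select range lay the library labelled Commercial replicate 2, at 76.6 CPM, and Select replicate 5 held 73.9 CPM. At 20 dph it was also higher in Select, at 58.0 CPM (SD 11.4, n = 5) against 26.8 CPM (SD 4.63, n = 5).

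The contactin gene cntn3a.1, a cell adhesion protein of the immunoglobulin superfamily known from neurons, had no counts in Commercial replicates 1, 3, 4 and 5. It was at 2.73, 1.21, 3.61 and 3.34 CPM in Select replicates 1 to 4, at least 33.1-fold higher when the Commercial group is set to a floor of 3 counts over its 4 libraries (29.6-fold without Select replicate 3). Its adjusted p was 0.00896. Select replicate 5 held 1.52 CPM and the library labelled Commercial replicate 2 held 2.64 CPM, within the Select range.

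**Figure D2:**
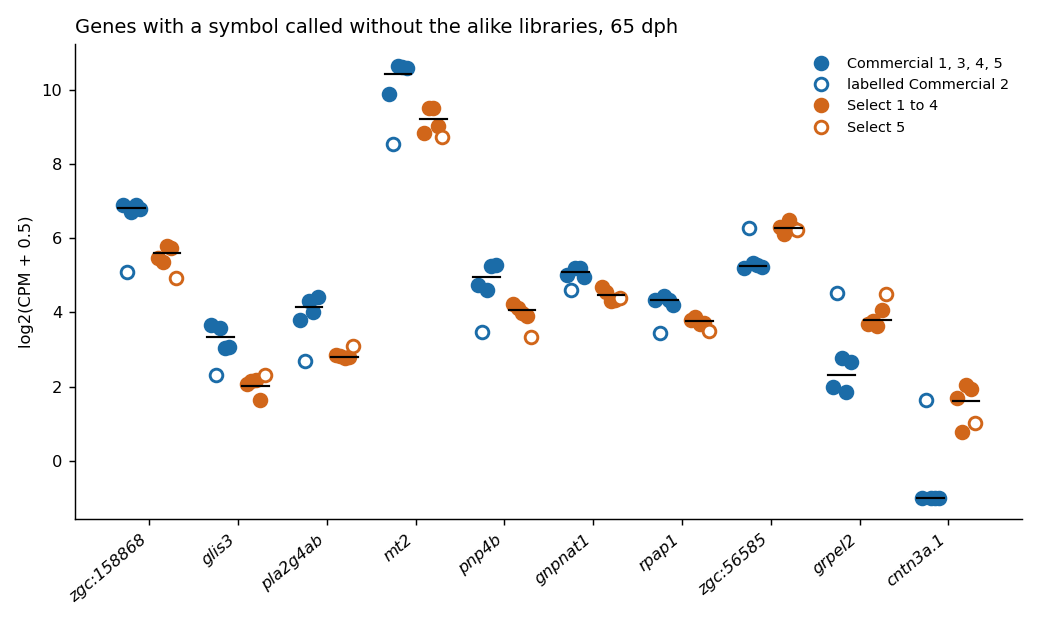
Level, as log2(CPM + 0.5), of the 10 genes with a symbol called without the alike libraries. Filled points are the 4 Commercial and 4 Select libraries of that test, bars their means, and open points the 2 libraries set aside. For zgc:56585, grpel2 and cntn3a.1 the open blue point of the library labelled Commercial replicate 2 lies among or above the Select points.

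The 10 calls did not hold equally well. When each of the 8 remaining libraries was left out in turn, zgc:158868, cntn3a.1 and grpel2 were called in all 8 fits. The gene zgc:56585 was called in 3, rpap1 and pnp4b in 2, mt2 and gnpnat1 in 1, and glis3 and pla2g4ab in 0, with adjusted p values up to 0.142. The direction of these calls could not change in such fits, because their groups of 4 did not overlap. With limma-voom cntn3a.1 (adjusted p = 0.145) and glis3 lost their calls. Without a filter on low counts 6 calls were lost, those of rpap1, pnp4b, glis3, gnpnat1, pla2g4ab and mt2. With the 65 dph libraries fitted alone 6 were lost, those of grpel2, rpap1, pnp4b, glis3, gnpnat1 and mt2. RLE scaling ended the calls of gnpnat1 and mt2, and an effective-length offset that of mt2.

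The detoxifying sulfotransferase sult3st1 (log2 fold change -0.90, adjusted p = 0.052), the peroxisomal membrane protein pxmp4 (-0.62, adjusted p = 0.0541) and the D-2-hydroxyglutarate dehydrogenase d2hgdh (0.78, adjusted p = 0.0541) missed the threshold narrowly. Their groups of 4 did not overlap, beside 8.39% of all features.

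Some genes were nearly absent from one group. The dehydrogenase gene dhrs7 had no counts in any of the 5 Commercial libraries and stood at 13.6, 11.2, 15.5 and 19.0 CPM in Select replicates 1 to 4, but at 0 in Select replicate 5. With Commercial set to a floor of 3 counts over its 5 libraries, Select was at least 180-fold higher (153-fold without Select replicate 4), with an adjusted p of 0.446, and of 0.128 without the alike libraries. At 20 dph it was at 0 in every Commercial library and also in Select replicate 3, and at 23.5 to 59.8 CPM in the other 4 Select libraries. The liver-type glycogen synthase gys2 was at 34.0, 25.8, 35.4 and 16.2 CPM in the 4 Commercial libraries and at 0.171, 1.82, 0.136 and 0.596 CPM in the 4 Select libraries, which gave a log2 value of -5.44 (SE 1.51, adjusted p = 0.167). The library labelled Commercial replicate 2, at 0.22 CPM, lay with Select.

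Stromal genes gave values above 0 as a group. Of 14 tested genes of fibroblasts and extracellular matrix, 13 had log2 fold changes above 0 and 9 reached an unadjusted p under 0.05, all higher in Select, beside 5.1% of all features. None passed the adjusted test. Their median log2 fold change was 0.60, 0.40 without Select replicate 2, and 0.41 with all libraries, where 2 reached an unadjusted p under 0.05. The membrane-type metalloproteinase mmp14b, which cleaves collagen, was at 11.3, 11.7, 14.6 and 13.7 CPM in Commercial and at 24.5, 36.1, 20.1 and 22.8 CPM in Select (log2 fold change 0.99, SE 0.21, adjusted p = 0.0688). Collagen gene col1a1 was at 220, 261, 318 and 208 CPM against 570, 703, 309 and 378 CPM (log2 fold change 0.94, adjusted p = 0.154), with an overlap of the groups. The laminin chain lamc1 gave 0.40 (adjusted p = 0.19), the lysyl oxidase loxl2b 0.85 (adjusted p = 0.19) and the microfibril protein mfap2, outside the list, 1.17 (adjusted p = 0.0772).

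The libraries were uneven in this group of genes. Summed over 16 members, the matrix list held 994, 1140, 1280 and 986 CPM in Commercial replicates 1, 3, 4 and 5, and 2220, 2610, 1270 and 1500 CPM in Select replicates 1 to 4. Select replicates 1 and 2 were the highest of the 8. The libraries set aside were higher still, at 2760 CPM in the library labelled Commercial replicate 2 and 3010 CPM in Select replicate 5. Smooth muscle genes summed to 3180 and 3070 CPM in these 2 libraries and to between 1390 and 2220 CPM in the other 8. The gene tpm2 alone made up 68.3% of the smooth muscle sum. In the libraries set aside, endocytosis and lysosome genes summed to 9350 and 9390 CPM, against 14100 to 16100 CPM elsewhere. Their brush-border genes summed to 9890 and 9690 CPM, against 11700 to 14600 CPM. The part of tissue makeup in the strain difference was not tested. Over 9 smooth muscle genes the median log2 fold change in the 4 against 4 was 0.08, and none reached an unadjusted p under 0.05.

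**Figure D3:**
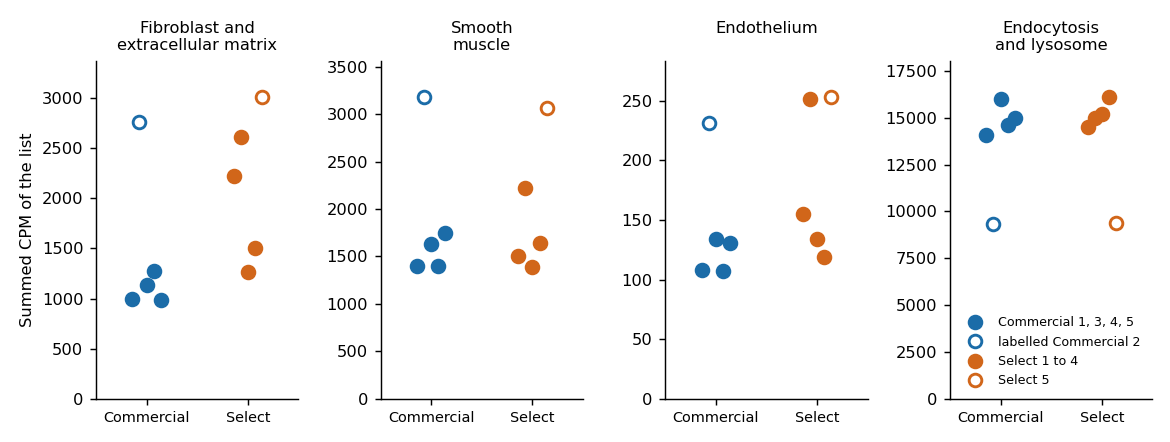
Summed CPM of the members of 4 gene lists in each library at 65 dph, with each axis starting at 0. Open points are the 2 libraries set aside. They hold the highest sums for smooth muscle, 3180 and 3070 CPM, and the lowest for endocytosis and lysosome, 9350 and 9390 CPM. The gene tpm2 makes up 68.3% of the smooth muscle sum.

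Vessel and complement genes lay on the same side. Of 12 tested endothelial genes 11 had log2 fold changes above 0, with a median of 0.47, or 0.14 without Select replicate 2. An unadjusted p under 0.05 was reached by 1, beside 5.1% of all features higher at such a p. It was the tight junction gene cldn5a, at 0.98 (adjusted p = 0.362). The endothelial list summed to 107 to 134 CPM in the 4 Commercial libraries and 119 to 251 CPM in the 4 Select libraries. Of 12 complement genes 10 lay above 0, with a median of 0.57 and a range from -3.04 to 2.75. Only 1 reached an unadjusted p under 0.05, beside 5.1% of all features higher at such a p. Groups of 4 did not overlap for 2 genes higher in Select and 1 lower, beside 4.25% and 4.13% of all features. The terminal complement component c6, part of the membrane attack complex, was at 10.7, 16.9, 25.4 and 15.2 CPM in the 4 Commercial libraries and at 113, 202, 95.4 and 57.2 CPM in the 4 Select libraries, or 2.75 on the log2 scale (SE 0.57, adjusted p = 0.0673). The library labelled Commercial replicate 2 held 100 CPM and Select replicate 5 held 96.7 CPM, both within the Select range. Its neighbour in that complex, c7a, gave 0.56 (adjusted p = 0.465). The complement list summed to 200 to 309 CPM in the 4 Commercial libraries and 344 to 631 CPM in the 4 Select libraries, without overlap. Enteric neuron and glia genes, of which 3 were tested, had a median of 0.59.

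Genes of cholesterol synthesis gave values below 0. Of 11 tested enzymes 8 lay below 0. An unadjusted p under 0.05 was reached by 5, all lower in Select, beside 6.03% of all features. Groups of 4 did not overlap for 5, also all lower, beside 4.13% of all features. No enzyme passed the adjusted test. The median log2 fold change was -0.75, and -0.64 with all libraries. With all libraries 2 enzymes reached an unadjusted p under 0.05, both lower, beside 3.51% of all features, and the groups of 5 overlapped for every enzyme. One library stood apart in the summed list, with 364 CPM in Commercial replicate 4 against 203 to 268 CPM in the other 3 Commercial libraries and 142 to 207 CPM in the 4 Select libraries. Without it the median was -0.54. Squalene synthase fdft1 was at 22.8, 20.7, 38.5 and 29.5 CPM in Commercial and at 17.6, 20.3, 7.96 and 14.9 CPM in Select (log2 fold change -0.90, SE 0.30, adjusted p = 0.258). The sterol reductase tm7sf2 gave -0.85 (adjusted p = 0.291) and the desaturase sc5d -0.61 (adjusted p = 0.304), or -0.28 without Commercial replicate 4. For fdft1 and tm7sf2 the groups of 4 were without overlap. The library labelled Commercial replicate 2 was again low, at 11.5 CPM for fdft1.

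In fatty acid and glycerolipid synthesis 7 of 8 tested genes lay below 0, with a median of -0.25. Acetyl-CoA carboxylase acaca, which makes the building block of fatty acids, was at 23.8, 19.7, 25.1 and 20.3 CPM in Commercial and at 16.7, 16.1, 8.37 and 13.0 CPM in Select (log2 fold change -0.74, adjusted p = 0.417). The phosphoenolpyruvate carboxykinase pck1, of gluconeogenesis and glycerol synthesis, gave -2.40 (SE 0.90, adjusted p = 0.326). Fatty acid oxidation enzymes, 16 in number, had a median of -0.15.

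Proteasome subunits mostly had values below 0. Of 14 tested, 13 lay below 0 and 6 reached an unadjusted p under 0.05, all lower in Select, beside 6.03% of all features. Genes with a symbol, from which the lists are drawn, also leaned lower. Of 5299 tested, 3132 lay below 0 and 2167 above, and 395 were lower and 195 higher at such a p. Groups that did not overlap were found for 4, all lower in Select, beside 4.13% of all features. None passed the adjusted test. The median was -0.25, and -0.16 without Commercial replicate 4, whose summed list stood apart at 815 CPM. The other 3 Commercial libraries held 562 to 617 CPM and the 4 Select libraries 510 to 593 CPM. The ATPase subunit psmc6 was at 30.3, 28.8, 36.8 and 26.4 CPM in Commercial and at 23.7, 25.1, 21.4 and 19.6 CPM in Select (log2 fold change -0.47, SE 0.12, adjusted p = 0.154). The lid subunit psmd8 gave -0.69 (adjusted p = 0.264), or -0.41 without Commercial replicate 4. Outside this list psmb9a, the subunit of the immunoproteasome that interferon induces, had a log2 fold change of 0.59 (adjusted p = 0.348), or 0.35 without Select replicate 3. Among 15 tested antigen presentation genes 0.59 was the highest value. Of these, 7 lay above 0 and 8 below, with a median of -0.05.

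Signalling and immediate early genes, some of which respond quickly to handling or feeding in vertebrates, had 15 of 19 values below 0 and a median of -0.50. The median was -0.36 without Commercial replicate 1 and -0.33 with all libraries. Of the 19, 5 reached an unadjusted p under 0.05, all lower in Select, beside 6.03% of all features and 395 of 5299 tested genes with a symbol. The AP-1 factor fosl2 was at 128, 116, 96.6 and 97.2 CPM against 73.6, 55.9, 76.1 and 74.2 CPM (log2 fold change -0.67, adjusted p = 0.364). The factor klf2a was lower in all 5 Select libraries, at 41.5 to 70.5 CPM, than in all 5 Commercial libraries, at 70.6 to 105 CPM. Its log2 fold change was -0.71 (adjusted p = 0.313), and -0.55 with all libraries.

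**Figure D4:**
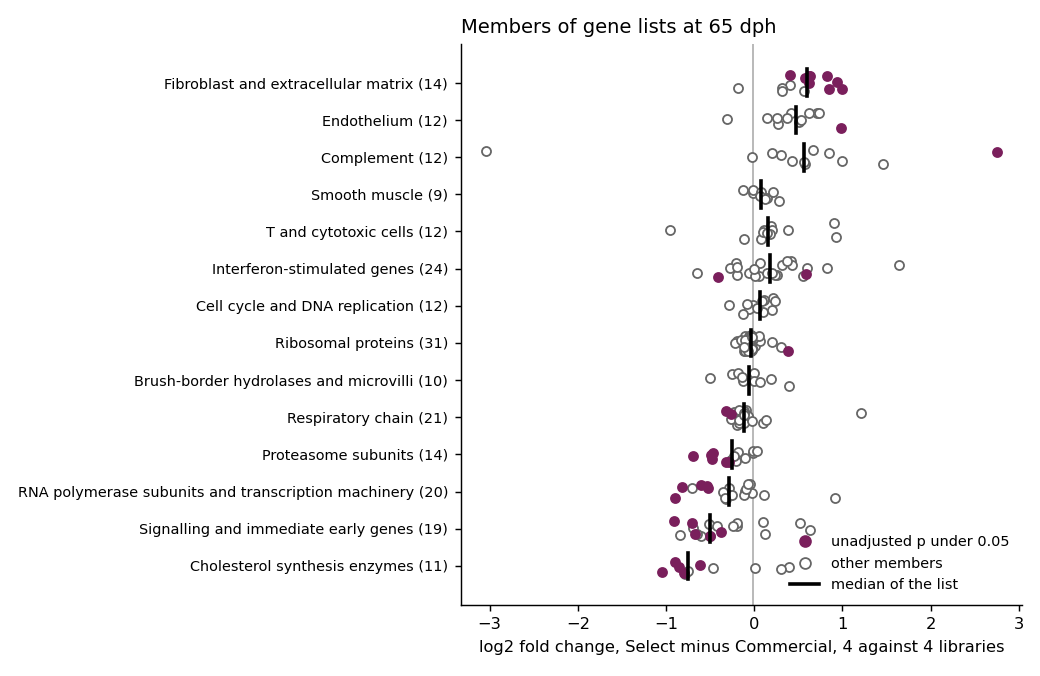
Log2 fold change (Select minus Commercial, 4 against 4 libraries) of each tested member of 14 gene lists, with the number tested in brackets. Black bars are medians, filled points have an unadjusted p under 0.05, and the grey line is the median of all features, -0.01. All genes with a symbol, from which the lists are drawn, had a median of -0.06. The matrix list has its median at 0.60 and the cholesterol list at -0.75.

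Lists of the absorptive epithelium had medians near 0. The 10 tested brush-border genes had a median of -0.06 and the 12 of enterocyte identity one of -0.01, with no call. Values ran from -0.50 to 0.39 in the first list and from -0.61 to 0.24 in the second. An unadjusted p under 0.05 was reached by 0 genes of the first and 2 of the second, both lower in Select, beside 6.03% of all features. The intestinal homeobox gene cdx1b gave -0.45 (adjusted p = 0.29), and agr2, a folding enzyme of goblet cells, -0.65 (adjusted p = 0.366). Ribosomal proteins (31 tested, median -0.04), the respiratory chain (21 tested, median -0.12) and the cell cycle (12 tested, median 0.06) also held no call.

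Immune genes held no call either. Medians were 0.16 over 12 T and cytotoxic cell genes, -0.01 over 5 B and plasma cell genes, -0.04 over 10 macrophage and granulocyte genes, 0.18 over 24 interferon-stimulated genes and 0.27 over 26 cytokines, chemokines and receptors. Without Select replicate 3 the interferon median was -0.04, and without Commercial replicate 3 the cytokine median was 0.41. The T and cytotoxic cell median was as low as 0.06, without Commercial replicate 5. In the last list 21 of 26 values lay above 0, with 0 higher and 1 lower at an unadjusted p under 0.05. Outside the cytokine list, the receptor of granulocyte colony-stimulating factor csf3r was at 5.05, 6.29, 6.36 and 6.59 CPM against 11.9, 13.2, 11.5 and 8.35 CPM (log2 fold change 0.86, SE 0.24, adjusted p = 0.168). Its groups of 4 did not overlap, beside 4.25% of all features without overlap and higher in Select. Among the 10 macrophage and granulocyte genes 0.86 was the highest log2 fold change, and 4 lay above 0 and 6 below. An unadjusted p under 0.05 was reached by 2 of them higher in Select and 1 lower.

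Of the 53 calls 10 had a symbol, as had 5299 of the 32498 features tested, so features without one held most calls and most tests. The smallest adjusted p of all, 0.000139, belonged to LOC110493747. It was at 22.3, 47.3, 88.5 and 42.6 CPM in Commercial replicates 1, 3, 4 and 5 and at 0.854, 0.809, 0.68 and 0.596 CPM in Select replicates 1 to 4, or -6.09 on the log2 scale (SE 0.54). Here Select replicate 5, at 42.9 CPM, lay with Commercial, next to 42.0 CPM in the library labelled Commercial replicate 2. With all libraries the log2 fold change was -2.43 (SE 0.92, adjusted p = 0.711). LOC110502805 showed the same arrangement at a lower level: 5.63 to 7.35 CPM in the 4 Commercial libraries, 1.62 to 2.74 CPM in the 4 Select libraries, 6.71 CPM in the library labelled Commercial replicate 2 and 6.09 CPM in Select replicate 5. Its log2 fold change was -1.45 (SE 0.19, adjusted p = 0.00687).

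The transcript XM_021567807.1, chosen after its values were seen, had no counts in Select replicates 1 to 4 and 5.73, 12.6, 15.8 and 9.09 CPM in the 4 Commercial libraries. Against a floor of 3 counts over those 4 Select libraries it was at least 161-fold lower in Select (136-fold without Commercial replicate 4; adjusted p = 0.0285), and its call was kept in 1 of the 8 fits that left out a further library. Select replicate 5 held 6.32 CPM and the library labelled Commercial replicate 2 held 14 CPM. The non-coding RNA gene LOC110508978 was at 3.49, 4.16, 6.73 and 6.93 CPM against 0.256, 0.202, 0.068 and 0.715 CPM (log2 fold change -4.15, SE 0.57, adjusted p = 0.00794). For this gene both libraries set aside lay with Select, at 0.33 and 0.351 CPM. XM_021616875.1 followed the second arrangement, with 59.2 to 113 CPM in the 4 Commercial libraries, 4.70 to 11 CPM in the 4 Select libraries, 8.69 CPM in the library labelled Commercial replicate 2 and 8.90 CPM in Select replicate 5 (log2 fold change -3.16, SE 0.50, adjusted p = 0.0185).

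Over the 53 called features, both libraries set aside lay nearer the mean of the 4 Select libraries at 38 and nearer the mean of the 4 Commercial libraries at 11, and they took opposite sides at 4. The library labelled Commercial replicate 2 was nearer Select at 42 of 53, and Select replicate 5 at 38 of 53. These means come from the libraries that chose the features, but not from the 2 libraries placed.

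The feature with the smallest p over all 10 libraries was XM_021622162.1, at 10.1, 4.18, 8.42, 7.36 and 6.48 CPM in Commercial replicates 1 to 5 and 26.1, 15.4, 26.3, 22.1 and 12.5 CPM in Select replicates 1 to 5. The 5 against 5 did not overlap. Its log2 fold change was 1.49 (SE 0.24, adjusted p = 0.183), and 1.45 (SE 0.21, adjusted p = 0.00882) without the alike libraries. Of all features tested, 321 (0.998%) had no overlap between 5 Select and 5 Commercial libraries, and 2725 (8.39%) had none between 4 and 4. Those higher in Select in the 4 against 4 made up 4.25% of all features. Among symbol genes, the serine hydrolase rbbp9 was separated in all 10 libraries, at 16.5 to 19.5 CPM in Select and 8.64 to 14.7 CPM in Commercial (log2 fold change 0.70, SE 0.17, adjusted p = 0.372). So was arpc5b, a subunit of the Arp2/3 complex that branches actin, at 3.74 to 7.18 CPM in Select and 7.84 to 12.1 CPM in Commercial (log2 fold change -0.81, SE 0.19, adjusted p = 0.372).

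The same strains at 20 dph, in other fish, showed whether a difference was already there. Of the 53 features called at 65 dph, 48 had the same direction at 20 dph, 20 higher and 28 lower, and 5 the opposite. Over all features tested at both ages the share with the same direction was 54.4%. In the fit without the alike libraries, 8 of the 53 were also called at 20 dph, where 66 of 32498 features (0.203%) were called. Both ages share the estimate of spread in a fit, so their calls are not independent. The 8 include cntn3a.1 (adjusted p = 0.0454) and zgc:56585. With all libraries in the fit, and the same 20 dph samples, 5 of the 53 were called at 20 dph, and cntn3a.1 was not among them (adjusted p = 0.248).

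The strain difference itself changed with age at 2 of 32498 features (0.00615%) without the alike libraries and at none of 32166 (0%) with all libraries, where 1781 (5.54%) had an unadjusted p under 0.05. Without the alike libraries 2608 (8.03%) had such a p. The first was LOC110493747, which stood at 50.6 CPM (SD 19.6, n = 5) in Commercial and 37.2 CPM (SD 14.5, n = 5) in Select at 20 dph. The change of its strain difference, 65 minus 20 dph, was -5.64 on the log2 scale (adjusted p = 0.00359). The second was XM_021596205.1, with a log2 fold change of 1.58 at 65 dph and -0.71 at 20 dph, a change of 2.27 (adjusted p = 0.0361). Its levels at 65 dph were 4.95, 8.91, 7.14, 4.49 and 9.20 CPM in Commercial replicates 1 to 5 and 21.2, 17.2, 25.9, 13.8 and 9.49 CPM in Select replicates 1 to 5, without overlap. For mt2, glis3 and gnpnat1, called at 65 dph, the log2 fold changes at 20 dph were -0.12, 0.20 and 0.22, and the changes between ages, -1.13, -1.68 and -0.88, did not pass the test (adjusted p = 0.554, 0.51 and 0.341).

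**Figure D5:**
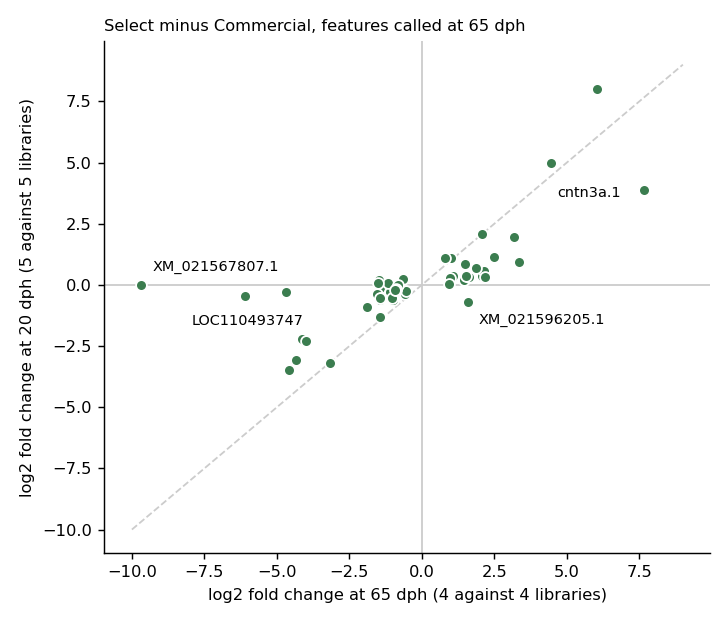
Log2 fold change, Select minus Commercial, of the 53 features called at 65 dph without the alike libraries (horizontal) and the same features at 20 dph in 5 against 5 libraries (vertical). The dashed line marks equal change. Values of cntn3a.1 and XM_021567807.1 are fitted values against a group without counts. Of the points, 48 lie on the same side of 0 at both ages.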

How the data were processed

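The deposited files hold, per the file headers, expected counts (estimated numbers of reads, 34.3% of them not whole), TPM and effective lengths for 78931 transcripts in each library. Per the submitters' processing notes the authors ran Salmon 1.2.1; for the transcript release, genome build and read filters, the sources used here give nothing. Salmon divides reads between near-identical copies, which are frequent in trout, so values of single copies are uncertain. The deposited TPM values, scaled by the authors for length and depth, only weighted the effective lengths of a gene's transcripts, which served 1 alternative, and no TPM is printed.

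Expected counts were summed per gene, with 42376 transcripts matched without version to a RefSeq gene table (assembly USDA_OmykA_1.1, which may differ from the authors' build) used for names only, and rounded to whole numbers. Matched transcripts held 64.7% of the counts at 65 dph. Strains were compared with edgeR 4.0.16 under R 4.3.3 (TMM scaling, filterByExpr, robust 2-sided quasi-likelihood F-test on 4 group means over all ages, Benjamini-Hochberg over all features tested). Calls are features with an adjusted p under 0.05. Standard errors divide the log2 fold change by the square root of F. DESeq2 1.42.0 and limma-voom (limma 3.58.1) were alternatives. The fitting scripts were checked on simulated counts. These had the same spread for every gene and no outlying libraries, so the check does not cover the effect of the alike libraries. Floors of 3 counts cover counting error only; no molecular identifiers are named in the labels.

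The compared libraries and the 47 gene lists were chosen with earlier results of these data known. Genes were named by rule: symbol genes called; per fit and direction the 10 smallest p among symbol genes whose mean log2 CPM reached 1; up to 4 members per list by p; up to 6 called features without symbol per direction; and up to 5 features per direction for the difference between ages. Not all are printed.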

Additional observations from a re-analysis of the deposited data

Results flagged for a closer look

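In 28 of the 116 groups of 5 libraries looked at (24.1%), 1 library lay far from the other 4 by Dixon's criterion. In 22 of them it was the library labelled Commercial replicate 2, in 5 Select replicate 5 and in 1 Select replicate 2. Chance flags about 5% of groups that were not chosen on their values. Many of these genes were chosen by a test that left out Commercial replicate 2 and Select replicate 5, which favours such gaps, so the 24.1% cannot be read against that share. The cause was not tested.

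The library labelled Commercial replicate 2 stood above the other 4 Commercial libraries at cntn3a.1 (2.64 CPM, others 0), grpel2 (22.4 CPM, others 3.12 to 6.29), zgc:56585 (76.6 CPM, others 36.3 to 39.6) and d2hgdh (17.3 CPM, others 6.79 to 8.75). It did so at the complement genes c6 (100 CPM) and c7a (135 CPM), at slc40a1 (45.5 CPM) and at csf3r (10.4 CPM). The same held for the matrix genes mmp14b (48.5 CPM), mfap2 (30.1 CPM), col1a1 (641 CPM), lamc1 (146 CPM) and loxl2b (16.8 CPM) and for the endothelial gene cldn5a (5.72 CPM). It stood below the other 4 at zgc:158868 (33.5 CPM, others 103 to 119) and acaca (5.72 CPM, others 19.7 to 25.1). Its summed levels were above theirs for the lists of matrix (2760 CPM, others 986 to 1280), smooth muscle (3180 CPM), endothelium (231 CPM), complement (580 CPM) and enteric neurons and glia (36.5 CPM), and below theirs for endocytosis and lysosome (9350 CPM). Single genes made up most of some sums, with tpm2 at 68.3% of smooth muscle and prph at 76.6% of enteric neurons and glia.

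Select replicate 5 stood above the other 4 Select libraries at LOC110493747 (42.9 CPM, others 0.596 to 0.854), LOC110502805 (6.09 CPM, others 1.62 to 2.74), XM_021567807.1 (6.32 CPM, others 0) and, by a small amount, pla2g4ab (7.96 CPM, others 6.26 to 6.75). It stood below them for the sum of the endocytosis and lysosome list (9390 CPM, others 14500 to 16100). Select replicate 2 stood above the other Select libraries at gys2 (1.82 CPM, others 0.136 to 0.596).

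The strain difference changed between ages, by a test of the change itself in edgeR without the alike libraries, at LOC110493747 (-5.64 on the log2 scale) and at XM_021596205.1 (2.27). With all libraries neither change passed the test.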

How the results depend on the processing

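Counts of called features depended on the tool and on single libraries. With all 10 libraries, where edgeR called 0 between strains, the count was 121 with DESeq2, 1 with only the 65 dph libraries in the fit, 53 without both alike libraries, and 0 to 125 when libraries were left out singly, with 125 without the library labelled Commercial replicate 2. Without the alike libraries, where 53 were called, the count was 23 without a filter on low counts, 87 with only the 65 dph libraries in the fit, 638 with DESeq2, 83 with limma-voom and 13 to 35 when a further library was left out. All 53 were among the 638, 23 among the 87 and 42 among the 83. RLE scaling, a filter of at least 1 CPM in 4 libraries, the fit without the robust option and an effective-length offset gave 51 to 53. That filter was planned as a stricter one but kept more features, 33115 against 32498, so no stricter filter was tried.

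For the difference of the strain effect between ages, DESeq2 called 66 features with all libraries and 110 without the alike ones, limma-voom 0 without them, and the fit without a filter 1. The 0 found with all libraries became 2 without the alike ones. Leaving out single libraries gave 0 to 2 with all libraries and 1 to 5 without the alike ones.

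The replicate numbers did not pair the samples: deviations of same-numbered Commercial and Select libraries correlated between -0.11 and 0.10, and 2 of 10 libraries correlated best with their own number. With the replicate number as a block, 26 features were called between strains without the alike libraries, 20 of them among the 53, and 0 for the difference between ages. Of the 10 symbol genes, 6 were not called with the block: grpel2, pnp4b, glis3, gnpnat1, pla2g4ab and mt2. Of the features named in the text, 51 were followed through the alternatives, and none of them changed direction in any fit that tested it. For called features, leaving out a further library of the 4 against 4 could not change the direction, since the groups did not overlap. The genes pla2g12a, pla2g15, ptges and ltc4s were not among the 51. The causes of these moves were not tested. Symbols cover 22.9% of the counts, which limits what the gene lists can see.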
